A study of Citrus maxima and Citrus sinensis with 8 samples.

Results

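The genes described here are the glutathione transferases (GSTs), glutaredoxins and thioredoxins of citrus root tips, with their thioredoxin reductases and a glutathione synthetase. Members were taken by words of the deposited gene descriptions ("glutathione S-transferase", "glutathione transferase", "glutaredoxin", "thioredoxin", "glutathione synth" or "glutamate-cysteine ligase", without peroxiredoxins). The rule also lists Cs2g16150 and Cs1g26810 by name, though their descriptions hold these words as well. The rule gave 109 of 30151 listed genes. Only 12956 genes (43.0%) carried a description, so other genes of these families may be among the rest. The 109 members were 53 GSTs, 16 glutaredoxins, 36 thioredoxins, 3 thioredoxin reductases and 1 glutathione synthetase. Of these, 90 were tested in both species, 11 had a mean under 1 FPKM in every group and were tested nowhere, and 2 (Cs5g32790, a phi GST, and Cs9g04760, a glutaredoxin) were listed at 0 in all 8 libraries.

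Glutathione is a small peptide with a free thiol that plant cells use to hold their redox balance and to tag harmful molecules. GSTs join it to reactive compounds, which are then pumped into the vacuole, and the tau and phi classes are large families in plants. Glutaredoxins take electrons from glutathione to reduce disulfide bonds or to carry iron-sulfur clusters, whereas thioredoxins do the same for disulfides with electrons from thioredoxin reductases. In *Arabidopsis*, GST transcripts are known to rise in roots given aluminum (Al).

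Seedlings of 'Xuegan' (*C. sinensis*, labelled Al-tolerant) and 'Shatian pummelo' (*C. grandis*, labelled Al-intolerant) were grown in sand and given nutrient solution with 0 (control) or 1 mM AlCl3 (+Al) for 18 weeks, and RNA from root tips was sequenced. Control seedlings received the same acid solution without Al. Each group had 2 libraries, and each library was a pool of roots from 5 seedlings. The values are FPKM (fragments scaled to transcript length and to the size of the library), and the reads of both species were mapped to the *C. sinensis* genome. Levels are therefore compared within a species. A p-value rests on the spread between 2 pools and on a typical spread that the test (limma) takes from all genes. The typical spread had far more weight in *C. grandis* (36.2 prior degrees of freedom) than in *C. sinensis* (3.5), so p-values of the 2 species are not on the same footing.

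The FPKM of all genes summed to between 713378 and 859570.4 in a library, and the relative depth read from the lowest values ranged from 0.707 to 1. The 2 +Al *C. grandis* libraries stood apart from each other, with a median log2 difference of 0.39 (replicate 2 minus replicate 1) over all genes tested, against -0.14 in control *C. grandis*, 0.02 in control *C. sinensis* and -0.03 in +Al *C. sinensis* roots. The 11 root genes used as a check of the tissue (Casparian strip proteins, scarecrow-like factors, a root cap gene and others) were all present, with a summed level of 176 to 254 FPKM. The summed level of 32 photosystem and light-harvesting genes, which root tips should largely lack, was 110.5 to 224 FPKM, with 3 of them at 0 and 11 under 1 FPKM in every library. Of the root genes 1 rose (Cs8g14760, a Casparian strip protein) and 1 fell (orange1.1t02415, a nitrate transporter) in +Al *C. sinensis* roots, and 1 fell (Cs1g24030, scarecrow-like) in +Al *C. grandis* roots. The response of 4 of the 11 differed between the species, higher in *C. grandis* for XLOC_018592 and lower for Cs1g24030, Cs6g14190 and Cs8g14760. Of the leaf genes tested, 1 of 16 fell in *C. sinensis* (Cs8g13660) and 2 of 17 in *C. grandis* (Cs1g18810 and Cs4g06040), and the response of Cs8g13660 was higher in *C. grandis*. Their part in the results was not tested, and in whole root tips fewer cells of a type and less RNA per cell cannot be told apart.

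Most of the members that changed with Al were GSTs. A member was called where limma gave an adjusted p of at most 0.05 over all genes tested and the log2 fold change (+Al against control, on log2(FPKM + 0.1)) was at least 1 in size. In *C. sinensis*, 5 of 93 members tested rose and 6 fell (4.46% and 4.06% of all 19152 genes tested did so), and all 11 were GSTs. None of 14 glutaredoxins, 31 thioredoxins and 3 thioredoxin reductases was called there by limma, with 7, 18 and 1 of them at an unadjusted p under 0.05. In *C. grandis*, 7 of 95 members rose and 13 fell (5.2% and 7.25% of 18677 genes), namely 5 and 8 GSTs, 2 and 2 thioredoxins, 2 falling glutaredoxins and 1 falling thioredoxin reductase. Members called in either direction made up 11.8% of those tested in *C. sinensis* and 21.1% in *C. grandis*, beside 8.53% and 12.5% of all genes. The median log2 fold change of the members was -0.03 and 0.13, and that of all genes tested was -0.0019 and -0.014. With no limit on size, 49 members (52.7%) passed the adjusted p in *C. sinensis* and 29 (30.5%) in *C. grandis*, beside 36.2% and 15.9% of all genes.

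**Figure D1:**
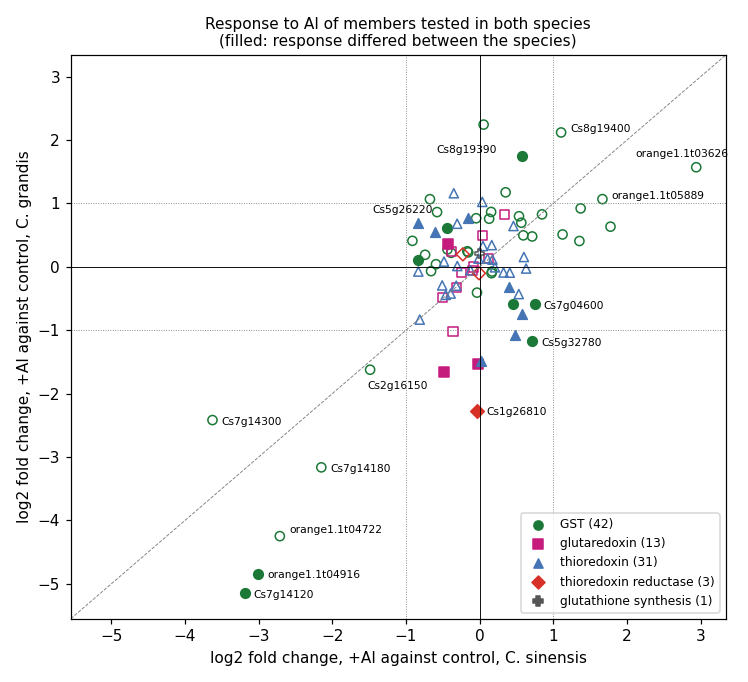
Log2 fold change (+Al against control) in *C. sinensis* (x axis) and *C. grandis* (y axis) of the 90 members tested in both species, by family. Dotted lines mark a log2 change of 1 in size, the dashed line equal change, and filled symbols members whose response differed between the species. A group of GSTs lies at the lower left, fallen in both species, while Cs1g26810 lies near 0 on the x axis and at -2.27 on the y axis.

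The member with the highest FPKM was a phi class GST. Cs5g32800 stood at 3935 and 3996 FPKM in control and 4317 and 4555 FPKM in +Al *C. sinensis* roots, and at 4239 and 4147 FPKM in control and 3920.3 and 3901 FPKM in +Al *C. grandis* roots, and it made up 58.2 to 66.0% of the FPKM of all GSTs in a library. FPKM is a level per length, so it can be set beside other genes of a library. Its log2 fold change was 0.16 (SE 0.05, adjusted p = 0.056) in *C. sinensis* and -0.10 (SE 0.13, adjusted p = 0.71) in *C. grandis*, and it was called in neither. The most abundant GST was thus not among those called. The GST total was 6093 and 6132 FPKM in control and 6774 and 6904 FPKM in +Al *C. sinensis* roots, without overlap. In *C. grandis* it was 6906 and 6540 FPKM in control and 6380 and 6703 FPKM in +Al roots, with overlap. A change in the total was not tested.

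The second phi member, Cs5g32780 (described as GSTF3), had opposite values in the species. It stood at 65.4 and 67.2 FPKM in control and 108 and 109 FPKM in +Al *C. sinensis* roots, with the 2 +Al libraries above both controls. In *C. grandis* it stood at 30.4 and 24.7 FPKM in control and 18 and 8.08 FPKM in +Al roots, with the +Al libraries below both controls. The log2 fold change was 0.71 (SE 0.05, adjusted p = 0.00053) in *C. sinensis*, below the size limit, and -1.18 (SE 0.32, adjusted p = 0.0072) in *C. grandis*, a called fall. The difference in log2 fold change between the species (*C. grandis* minus *C. sinensis*), called at an adjusted p of at most 0.05 alone, was -1.89 (SE 0.45, adjusted p = 0.027). The fall in *C. grandis* was -0.60 without +Al replicate 2 and was also not called without either control library (adjusted p 0.0288 to 0.456 over the 4 fits that left out a library). The difference was not called when any 1 of the 4 *C. sinensis* or 2 control *C. grandis* libraries was left out (adjusted p 0.000738 to 0.122 over 8 such fits). With each library rescaled by its median ratio to the others, the fall (adjusted p = 0.164) and the difference (adjusted p = 0.0581) were both lost.

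The deepest falls of any member were in a set of tau 19 and "probable" GSTs, and they were shared by both species. Tau GSTs are the class best known for conjugating herbicides and other foreign compounds. Cs7g14120, a probable GST, stood at 5.67 and 9.68 FPKM in control and 0.78 and 0.669 FPKM in +Al *C. sinensis* roots, and at 52.4 and 50.1 FPKM in control and 1.69 and 1.07 FPKM in +Al *C. grandis* roots. Orange1.1t04916, a tau 19 GST, stood at 36.3 and 42.4 FPKM in control and 4.7 and 4.87 FPKM in +Al *C. sinensis* roots, and at 70.5 and 65.1 FPKM in control and 2.94 and 1.74 FPKM in +Al *C. grandis* roots. Orange1.1t04722, a probable GST, stood at 52.4 and 61.8 FPKM in control and 7.98 and 9.27 FPKM in +Al *C. sinensis* roots, and at 115 and 128 FPKM in control and 12.6 and 3.11 FPKM in +Al *C. grandis* roots. In each of the 3, both +Al libraries of a species lay far below both of its controls. Cs7g14180, a probable GST, was lower at 6.78 and 6.46 FPKM in control and 2.15 and 0.919 FPKM in +Al *C. sinensis* roots, and at 9.29 and 7.86 FPKM in control and 1.34 and 0.547 FPKM in +Al *C. grandis* roots, again without overlap.

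The log2 fold change of Cs7g14120 was -3.19 (SE 0.31, adjusted p = 0.0013) in *C. sinensis* and -5.15 (SE 0.33, adjusted p = 2.4e-15) in *C. grandis*. For orange1.1t04916 it was -3.01 (SE 0.11, adjusted p = 0.00013) and -4.84 (SE 0.32, adjusted p = 3.1e-15), and for orange1.1t04722 -2.71 (SE 0.12, adjusted p = 0.00017) and -4.25 (SE 0.36, adjusted p = 3.5e-12). These 6 calls held whichever library was left out. The fall was deeper in *C. grandis* for Cs7g14120, with a difference in log2 fold change (*C. grandis* minus *C. sinensis*) of -1.96 (SE 0.44, adjusted p = 0.022), and for orange1.1t04916, with -1.84 (SE 0.34, adjusted p = 0.0099). For orange1.1t04722 the difference was -1.54 (adjusted p = 0.20) and was not called. Each of the 2 differences was lost in 5 of 8 fits without a library, namely without either +Al *C. sinensis* library, *C. sinensis* control 1 or *C. grandis* control 1 for both, and without *C. grandis* control 2 for Cs7g14120 and *C. sinensis* control 2 for orange1.1t04916 (adjusted p 0.0137 to 0.0992 and 0.001 to 0.0745). Cs7g14180 changed by -2.15 (SE 0.38, adjusted p = 0.0099) in *C. sinensis*, a call lost without either control library (adjusted p 0.0112 to 0.0949), and by -3.16 (SE 0.45, adjusted p = 1.1e-06) in *C. grandis*.

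**Figure D2:**
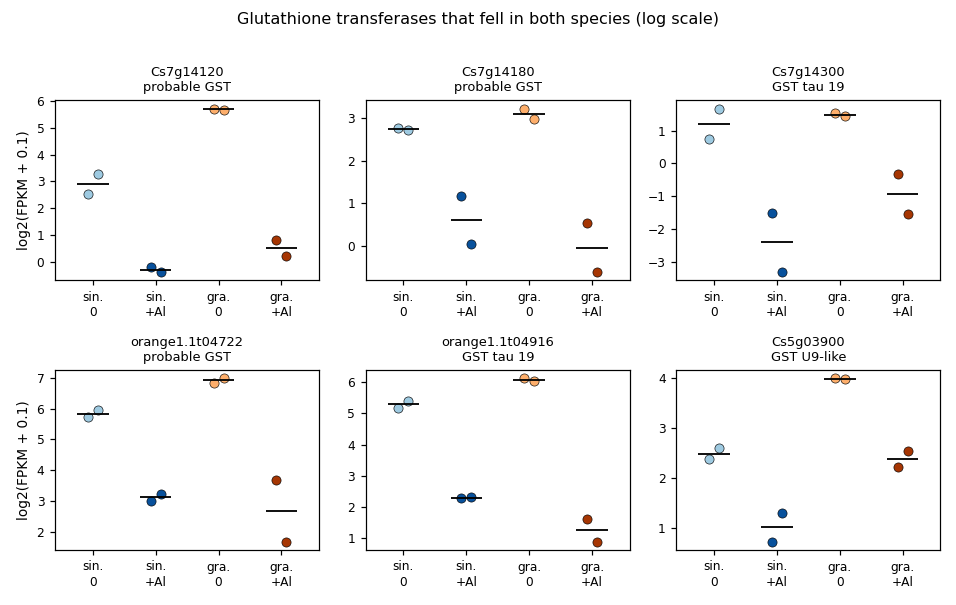
log2(FPKM + 0.1) in each library (points) with the group mean (line) for the 6 glutathione transferases called as fallen in both *C. sinensis* (sin.) and *C. grandis* (gra.), at 0 or 1 mM Al. In every panel both +Al points of a species lie below both of its control points, and the y axes are logarithmic and differ between panels.

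A further fall was that of Cs5g03900, described as U9-like, which stood at 5.07 and 5.99 FPKM in control and 1.54 and 2.34 FPKM in +Al *C. sinensis* roots, and at 16 and 15.7 FPKM in control and 4.53 and 5.71 FPKM in +Al *C. grandis* roots. It changed by -1.49 (SE 0.25, adjusted p = 0.0079) in *C. sinensis* and by -1.62 (SE 0.32, adjusted p = 0.00023) in *C. grandis*, and each call was lost without either control library of the species (adjusted p 0.0226 to 0.0862 and 0.0166 to 0.153). The tau 19 GST Cs7g14300 had the lowest FPKM of the 6 members fallen in both. Its log2 fold change was -3.63 (SE 0.79, adjusted p = 0.019) in *C. sinensis* and -2.42 (SE 0.64, adjusted p = 0.0058) in *C. grandis*. The call in *C. sinensis* was lost without either control library (adjusted p 0.0213 to 0.101), and that in *C. grandis* with rescaled libraries (adjusted p = 0.0523). Another tau 19 GST, orange1.1t04724, was at 0 in every +Al library of both species. It was too low to be tested in *C. sinensis* and passed in *C. grandis* (adjusted p = 0.047), where it was not called without either +Al library (adjusted p 6.20e-11 to 0.0647). These last 2 are among the 4 called members of lowest level, which ranged from 0 to 5.62 FPKM.

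Of the 6 GSTs that fell in both species, 5 carried the annotation "response to metal ion" in the deposited gene ontology terms (Cs7g14120, Cs7g14180, Cs7g14300, orange1.1t04722 and orange1.1t04916). That annotation was on 13 members, 12 of them GSTs. Of those tested, 5 of 11 fell in *C. sinensis* and 5 of 12 in *C. grandis*, the same 5 genes, beside 4.06% and 7.25% of all genes. None was called as risen by limma, with 2 and 4 above 0 at an unadjusted p under 0.05. The terms come from annotation databases and are not measurements. Members of the glutathione metabolism pathway as annotated in the files were 11, of which 9 were tested in each species and none was called by limma, with 6 and 4 at an unadjusted p under 0.05. The C-S lyase annotation, which marks enzymes that cut carbon-sulfur bonds, was on 23 GSTs, 22 of them tested in each species. Among the calls, +Al *C. sinensis* roots had 4 higher and 4 lower and +Al *C. grandis* roots 2 higher and 4 lower. Of all genes, 8.53% and 12.5% were called in either direction.

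In *C. sinensis* 5 GSTs rose, by between 1.11 and 1.67 on the log2 scale, and all were tau members or glutathione transferases described as partial. Orange1.1t03455, a tau 7 GST, stood at 21.2 and 24.1 FPKM in control and 65.4 and 51.2 FPKM in +Al *C. sinensis* roots, and at 9.59 and 4.95 FPKM in control and 10.4 and 8.11 FPKM in +Al *C. grandis* roots. Orange1.1t03629, also tau 7, stood at 14.6 and 12.7 FPKM in control and 38.6 and 32.3 FPKM in +Al *C. sinensis* roots, and at 15.1 and 9.94 FPKM in control and 23.9 and 22.8 FPKM in +Al *C. grandis* roots. Orange1.1t05889, a glutathione transferase, stood at 3.36 and 3.11 FPKM in control and 11.8 and 9.3 FPKM in +Al *C. sinensis* roots, and at 2.5 and 1.25 FPKM in control and 3.13 and 4.68 FPKM in +Al *C. grandis* roots. In *C. sinensis* the +Al libraries of all 3 were above both controls, whereas in *C. grandis* those of orange1.1t03455 overlapped the controls. The log2 fold change in *C. sinensis* was 1.67 (SE 0.16, adjusted p = 0.0013) for orange1.1t05889, 1.37 (SE 0.12, adjusted p = 0.00096) for orange1.1t03629 and 1.35 (SE 0.13, adjusted p = 0.0014) for orange1.1t03455, and these 3 calls held whichever library was left out.

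Orange1.1t03618, a glutathione transferase, stood lower, at 2.81 and 2.39 FPKM in control and 6.08 and 5.47 FPKM in +Al *C. sinensis* roots, and at 1.36 and 0.778 FPKM in control and 1.36 and 1.68 FPKM in +Al *C. grandis* roots. It rose by 1.13 (SE 0.17, adjusted p = 0.0058) in *C. sinensis*, a call lost without control replicate 2 or +Al replicate 1 (adjusted p 0.0426 to 0.0603). None of these 4 was called in *C. grandis*, where the values were 1.07 (adjusted p = 0.12), 0.92 (adjusted p = 0.028), 0.41 (adjusted p = 0.51) and 0.51 (adjusted p = 0.66) in the order orange1.1t05889, orange1.1t03629, orange1.1t03455 and orange1.1t03618. The test of the difference passed for none of the 4 (adjusted p 0.172 to 0.45), so a rise particular to *C. sinensis* was not shown.

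Cs8g19400, described as GST U7, was the only member called as risen in both species. It stood at 4.08 and 4.14 FPKM in control and 8.64 and 9.3 FPKM in +Al *C. sinensis* roots, and at 5.52 and 3.16 FPKM in control and 15.9 and 21.5 FPKM in +Al *C. grandis* roots, with no overlap in either. The rise was 1.11 (SE 0.12, adjusted p = 0.002) in *C. sinensis* and 2.12 (SE 0.34, adjusted p = 7.3e-06) in *C. grandis*, the latter not called without control replicate 2 or either +Al library (adjusted p 0.00153 to 0.0645). With a pseudocount of 1 the rise in *C. sinensis* was 0.96, under the size limit. The next gene in the numbering, Cs8g19390, described as U8-like, stood at 20.7 and 21.6 FPKM in control and 29.5 and 33.6 FPKM in +Al *C. sinensis* roots, and at 23.8 and 23 FPKM in control and 86.4 and 71.7 FPKM in +Al *C. grandis* roots. It rose by 1.75 (SE 0.26, adjusted p = 1.9e-06) in *C. grandis*, a call that held whichever library was left out, against 0.57 (SE 0.09, adjusted p = 0.0064) in *C. sinensis*. The difference was 1.18 (SE 0.20, adjusted p = 0.0076), and it was lost without *C. sinensis* control 2 or +Al 1 (adjusted p 0.00195 to 0.0547). Their neighbour Cs8g19380 (U7) was called in neither species, with -0.17 (adjusted p = 0.075) and 0.25 (adjusted p = 0.57). Neighbouring copies may share reads, so the split of the signal among the 3 is uncertain.

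**Figure D3:**
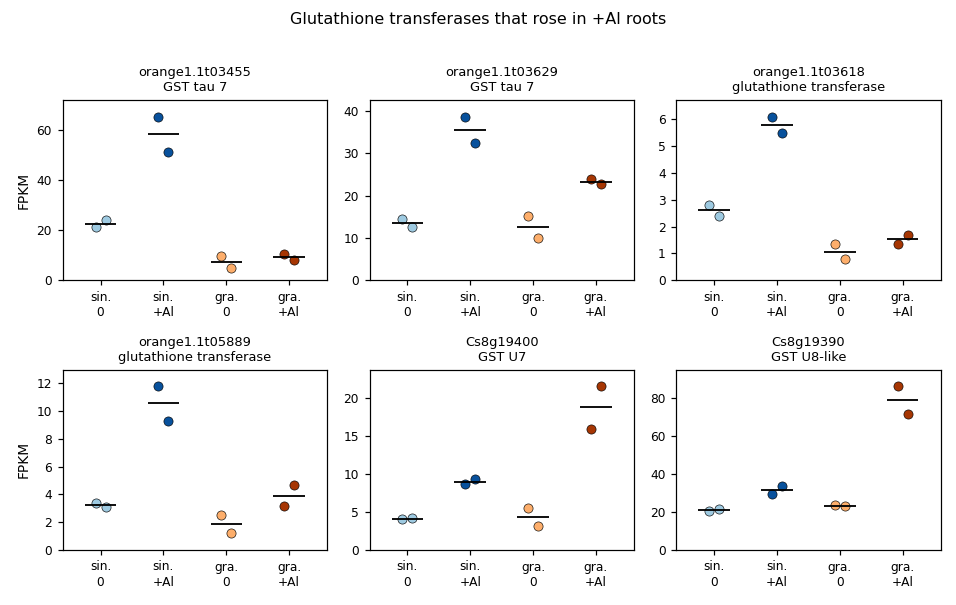
FPKM in each library (points) with the group mean (line) for 6 glutathione transferases that rose in +Al roots of *C. sinensis* (sin.), *C. grandis* (gra.) or both. The 4 members numbered orange1.1t were called in *C. sinensis* only, Cs8g19390 in *C. grandis* only and Cs8g19400 in both, and the y axes start at 0 and differ between panels.

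In *C. grandis* the largest rise was that of orange1.1t03456, a glutathione transferase that stood at 0.722 and 0.514 FPKM in control and 4.51 and 12.1 FPKM in +Al roots. The log2 fold change was 3.40 (SE 0.50, adjusted p = 1.8e-06), called whichever library was left out. In *C. sinensis* it was listed at 0 in both control libraries and at 0.318 and 0 FPKM in +Al ones, and it was not tested there. Orange1.1t03610, a tau 7 GST, was likewise listed at 0 in all 4 *C. sinensis* libraries and stood at 2.52 and 2.08 FPKM in control and 4.32 and 5.7 FPKM in +Al *C. grandis* roots, with 1.08 (SE 0.41, adjusted p = 0.069). An exact 0 can be a failed estimate, so these values do not show that either gene is silent in *C. sinensis*.

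Smaller rises in *C. grandis* were those of orange1.1t00238, a zeta GST, and orange1.1t03626, a probable GST. Zeta GSTs isomerise a product of tyrosine breakdown. Orange1.1t00238 stood at 2.03 and 1.98 FPKM in control and 3.03 and 2.21 FPKM in +Al *C. sinensis* roots, and at 4.22 and 2.79 FPKM in control and 7.23 and 8.59 FPKM in +Al *C. grandis* roots, and rose by 1.18 (SE 0.37, adjusted p = 0.022) in *C. grandis*. Orange1.1t03626 rose by 1.57 (SE 0.48, adjusted p = 0.02) in *C. grandis* and was at 2.94 (adjusted p = 0.077) in *C. sinensis*, where 1 control library was at 0. Neither rise was called in any of the 4 fits that left out a *C. grandis* library (adjusted p 0.123 to 0.81 and 0.0895 to 0.521).

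Members numbered from orange1.1t03452 to orange1.1t03632, a run of 15 GSTs (mostly tau 7 and partial transferases) picked out after their values were seen, leaned the same way. All 10 of the run tested in *C. sinensis* and all 12 tested in *C. grandis* had a log2 fold change above 0. In *C. sinensis* the median was 0.99 (range 0.53 to 2.94) and 3 were called, beside 4.46% of all genes called as risen. In *C. grandis* it was 0.75 (0.41 to 3.40), with 2 called, beside 5.2% of all genes. The most abundant, orange1.1t03617 (tau 7), stood at 102 and 97.4 FPKM in control and 158 and 132 FPKM in +Al *C. sinensis* roots, and at 233 and 169.8 FPKM in control and 327 and 365 FPKM in +Al *C. grandis* roots, so that +Al libraries were above controls in both species. Its changes were 0.53 (SE 0.09, adjusted p = 0.0089) and 0.80 (SE 0.21, adjusted p = 0.0049), past the adjusted p and under the size limit. Of the run, 8 passed the adjusted p in *C. sinensis* and 5 in *C. grandis* with no limit on size, beside 36.2% and 15.9% of all genes. Its members may share reads and are not independent of each other.

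Among the other abundant GSTs, Cs7g04600 (U18-like) took opposite directions in the species. It stood at 466 and 418 FPKM in control and 755 and 726 FPKM in +Al *C. sinensis* roots, with both +Al libraries higher. In *C. grandis* it stood at 611 and 522 FPKM in control and 441 and 318 FPKM in +Al roots, both lower. The changes were 0.75 (SE 0.07, adjusted p = 0.00096) and -0.59 (SE 0.19, adjusted p = 0.029), each past the adjusted p and neither past the size limit, and their difference was -1.34 (SE 0.23, adjusted p = 0.0075). It was not called without *C. sinensis* control 2 or either +Al *C. sinensis* library (adjusted p 0.00192 to 0.0599). Cs7g04580, a GST family member close by in the numbering, stood at 79.3 and 76.7 FPKM in control and 106 and 107 FPKM in +Al *C. sinensis* roots, and at 33.1 and 26.6 FPKM in control and 17.1 and 22.9 FPKM in +Al *C. grandis* roots. Its difference was -1.03 (SE 0.24, adjusted p = 0.024), lost when any 1 *C. sinensis* library or *C. grandis* control 1 was left out (adjusted p 0.00499 to 0.116).

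The Tau2 GST Cs5g15190 went the other way. It stood at 409.5 and 412 FPKM in control and 229 and 229.9 FPKM in +Al *C. sinensis* roots, and at 393 and 403 FPKM in control and 378 and 487 FPKM in +Al *C. grandis* roots, so the +Al level was lower in *C. sinensis* without overlap, whereas in *C. grandis* the +Al libraries lay on either side of the controls. The change was -0.84 (SE 0.04, adjusted p = 0.00023) in *C. sinensis* and 0.11 (SE 0.19, adjusted p = 0.79) in *C. grandis*, and the difference was 0.95 (SE 0.18, adjusted p = 0.01). Its paralogs Cs5g15160 and Cs5g15170, also described as Tau2, were not called for a difference, at -0.24 (adjusted p = 0.46) and 0.63 (adjusted p = 0.08). Cs5g03820, a GST, stood at 69.6 and 74.9 FPKM in control and 52.3 and 54.3 FPKM in +Al *C. sinensis* roots, and at 78.3 and 68.8 FPKM in control and 98.2 and 129 FPKM in +Al *C. grandis* roots, with a difference of 1.05 (SE 0.21, adjusted p = 0.014). Both differences were lost when any 1 of the 4 *C. sinensis* libraries was left out, and that of Cs5g03820 also without *C. grandis* control 2 (adjusted p 0.000532 to 0.0684 and 0.00237 to 0.0853). The abundant zeta GST Cs3g01150 stood at 174 and 179.8 FPKM in control and 130.2 and 141 FPKM in +Al *C. sinensis* roots, and at 160.0 and 138 FPKM in control and 152 and 198 FPKM in +Al *C. grandis* roots, with changes of -0.39 (adjusted p = 0.0057) and 0.22 (adjusted p = 0.59).

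Glutathione synthesis itself showed no call. Cs3g12590, a glutathione synthetase, which adds glycine in the last step, stood at 22.4 and 22.5 FPKM in control and 22.1 and 22.8 FPKM in +Al *C. sinensis* roots, and at 17.1 and 12.8 FPKM in control and 14.5 and 20.2 FPKM in +Al *C. grandis* roots. The changes were 0.00 (SE 0.07, adjusted p = 1.00) and 0.21 (SE 0.30, adjusted p = 0.74), and the groups overlapped in both species. The first step is made by gamma-glutamylcysteine synthetase, a name the rule did not take up. Cs5g03610, so described and chosen after its values were seen, ranged from 39.6 to 52.2 FPKM over the libraries and was not called either, at -0.04 (SE 0.07, adjusted p = 0.67) and 0.19 (SE 0.26, adjusted p = 0.72).

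Both glutaredoxins called within a species fell in *C. grandis*. Cs2g16150, the most abundant of the 16, stood at 272 and 287 FPKM in control and 192 and 205 FPKM in +Al *C. sinensis* roots. In *C. grandis* it stood at 378 and 413 FPKM in control and 104 and 149.7 FPKM in +Al roots. The +Al libraries were below both controls in each species, by a far wider gap in *C. grandis*. The log2 fold change was -0.49 (SE 0.06, adjusted p = 0.0024) in *C. sinensis*, under the size limit, and -1.66 (SE 0.21, adjusted p = 1.1e-07) in *C. grandis*, called whichever library was left out. The difference of -1.17 (SE 0.23, adjusted p = 0.013) was lost when any 1 *C. sinensis* library or *C. grandis* control 2 was left out (adjusted p 0.00076 to 0.0833).

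Cs2g13810, described as glutaredoxin-C1, stood at 7.6 and 5.6 FPKM in control and 5.66 and 7.36 FPKM in +Al *C. sinensis* roots, and at 3.95 and 6.44 FPKM in control and 1.68 and 1.68 FPKM in +Al *C. grandis* roots. It fell by 1.53 (SE 0.43, adjusted p = 0.011) in *C. grandis* and was at -0.02 (adjusted p = 0.96) in *C. sinensis*, where the groups overlapped. The fall was not called in any fit without a *C. grandis* library (adjusted p 0.0953 to 0.598), and its difference, -1.51 (SE 0.42, adjusted p = 0.043), held in 1 of 8 such fits, that without *C. grandis* control 1 (adjusted p 0.0406 to 0.187). Cs3g01790, a glutaredoxin family member, stood at 60.3 and 59.5 FPKM in control and 43.9 and 45.4 FPKM in +Al *C. sinensis* roots, and at 61 and 63.7 FPKM in control and 69.1 and 91.8 FPKM in +Al *C. grandis* roots. Its response differed by 0.78 (SE 0.21, adjusted p = 0.04), with both +Al libraries below the controls in *C. sinensis* and above them in *C. grandis*, a call lost when any 1 *C. sinensis* or control *C. grandis* library was left out (adjusted p 0.00137 to 0.144). The rest of the glutaredoxins tested, among them the plastid S7 and C5, the mitochondrial S15 and the multidomain S17, were called nowhere.

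The largest called difference between the species was that of a thioredoxin reductase. Cs1g26810, described as NADPH-dependent thioredoxin reductase A, passes electrons from NADPH to thioredoxins outside the plastid. It stood at 309 and 312 FPKM in control and 308 and 299 FPKM in +Al *C. sinensis* roots, all 4 nearly level. In *C. grandis* it stood at 278 and 261 FPKM in control and 42.2 and 73.6 FPKM in +Al roots, both +Al libraries far below the controls. The change was -0.03 (SE 0.04, adjusted p = 0.61) in *C. sinensis* and -2.27 (SE 0.24, adjusted p = 1.4e-09) in *C. grandis*. The difference was -2.24 (SE 0.31, adjusted p = 0.0036), and both this and the fall in *C. grandis* were called whichever library was left out (adjusted p 0.000127 to 0.0378 for the difference). The 2 other reductases, Cs2g12260 (the ferredoxin-dependent enzyme of plastids) and orange1.1t02320 (NADPH-dependent), were called nowhere, with 0.20 (adjusted p = 0.73) and -0.10 (adjusted p = 0.91) in *C. grandis*.

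**Figure D4:**
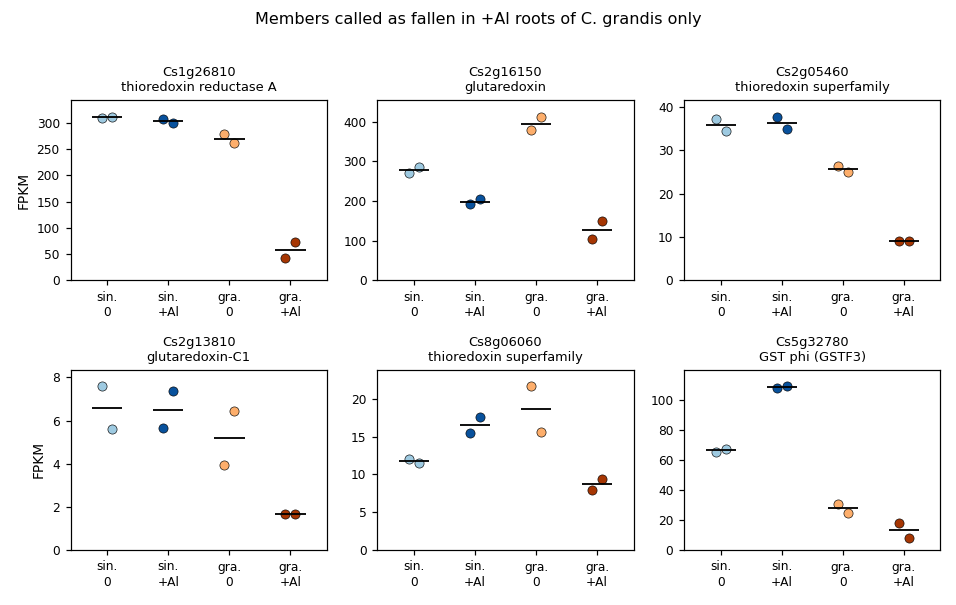
FPKM in each library (points) with the group mean (line) for the 6 members called as fallen in +Al *C. grandis* (gra.) and tested but not called in *C. sinensis* (sin.). In every panel the 2 +Al *C. grandis* points lie below both control points, Cs1g26810 going from 278 and 261 to 42.2 and 73.6 FPKM, and the y axes start at 0 and differ between panels.

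The most abundant thioredoxins, among them the h type of the cytosol, stayed under the size limit in both species. Cs1g24740 (H1) stood at 525 and 550.4 FPKM in control and 372 and 384 FPKM in +Al *C. sinensis* roots, and at 360.2 and 341 FPKM in control and 279.7 and 293 FPKM in +Al *C. grandis* roots. It changed by -0.51 (SE 0.05, adjusted p = 0.0013) and -0.29 (SE 0.19, adjusted p = 0.37), lower with Al in every library but under the size limit. Cs5g33860, a thioredoxin family protein, stood at 327 and 327 FPKM in control and 456 and 413 FPKM in +Al *C. sinensis* roots, and at 228 and 206 FPKM in control and 196 and 211 FPKM in +Al *C. grandis* roots, with 0.41 (adjusted p = 0.0053) and -0.09 (adjusted p = 0.84). Cs3g26630, a thioredoxin superfamily protein, stood at 211 and 209 FPKM in control and 120.1 and 119 FPKM in +Al *C. sinensis* roots, and at 157 and 160.3 FPKM in control and 79.9 and 99.2 FPKM in +Al *C. grandis* roots. It changed by nearly the same amount in both species, -0.81 (SE 0.05, adjusted p = 0.00028) and -0.83 (SE 0.23, adjusted p = 0.0073), with no overlap between groups and no call, since the change was under the size limit.

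The responses of 2 H2 types differed between the species. Cs6g20580 (H2) stood at 40.4 and 41.1 FPKM in control and 51.7 and 56.3 FPKM in +Al *C. sinensis* roots, and at 43.5 and 41.2 FPKM in control and 35.5 and 32.7 FPKM in +Al *C. grandis* roots. Cs7g04520 (H2-like) stood at 111 and 120.2 FPKM in control and 100.3 and 107 FPKM in +Al *C. sinensis* roots, and at 105 and 121 FPKM in control and 156 and 239 FPKM in +Al *C. grandis* roots. The difference was -0.71 (SE 0.17, adjusted p = 0.025) for the first and 0.94 (SE 0.27, adjusted p = 0.0496) for the second, so 2 genes of like description had differences of opposite sign. Each was lost when any 1 *C. sinensis* or control *C. grandis* library was left out (adjusted p 0.00557 to 0.114 and 0.00264 to 0.188).

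Of the thioredoxin superfamily proteins, 2 fell in *C. grandis*. Cs2g05460 stood at 37.2 and 34.5 FPKM in control and 37.8 and 34.9 FPKM in +Al *C. sinensis* roots, and at 26.5 and 25.1 FPKM in control and 9.16 and 9.1 FPKM in +Al *C. grandis* roots, level in *C. sinensis* and far lower with Al in *C. grandis*. It fell by 1.49 (SE 0.30, adjusted p = 0.00023) in *C. grandis*, a call lost without either control library (adjusted p 0.0157 to 0.161), against 0.02 (adjusted p = 0.86) in *C. sinensis*. Its difference of -1.51 (SE 0.18, adjusted p = 0.0021) was called whichever of the 8 libraries was left out. That SE is below the 0.30 of the fall. The typical spread had 3.8 prior degrees of freedom in the test of the difference, against 36.2 in *C. grandis* alone. The 2 SEs are therefore not on the same footing. Cs8g06060 stood at 12 and 11.6 FPKM in control and 15.4 and 17.6 FPKM in +Al *C. sinensis* roots, and at 21.7 and 15.6 FPKM in control and 7.97 and 9.4 FPKM in +Al *C. grandis* roots, higher with Al in *C. sinensis* and lower in *C. grandis*. It fell by 1.08 (SE 0.31, adjusted p = 0.012) in *C. grandis*, not called in any fit without a *C. grandis* library (adjusted p 0.0672 to 0.719). The difference was -1.56 (SE 0.28, adjusted p = 0.0092), lost without either *C. sinensis* control or *C. sinensis* +Al replicate 2 (adjusted p 0.00844 to 0.0638).

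Of the thioredoxins, 2 rose in *C. grandis*, and both belong to types known as plastid proteins in *Arabidopsis*. Orange1.1t02220, a WCRKC thioredoxin, stood at 3.95 and 5.73 FPKM in control and 3.82 and 3.61 FPKM in +Al *C. sinensis* roots, and at 6.23 and 3.84 FPKM in control and 8.63 and 14.2 FPKM in +Al *C. grandis* roots. Cs4g13930, the atypical thioredoxin ACHT2, stood at 6.67 and 8.85 FPKM in control and 8.54 and 7.28 FPKM in +Al *C. sinensis* roots, and at 8.58 and 6.1 FPKM in control and 14 and 15.7 FPKM in +Al *C. grandis* roots. They rose in *C. grandis* by 1.16 (SE 0.35, adjusted p = 0.017) and 1.02 (SE 0.32, adjusted p = 0.021), and the difference passed for neither, at 1.51 (adjusted p = 0.063) and 0.99 (adjusted p = 0.077). Neither rise was called in any fit without a *C. grandis* library (adjusted p 0.103 to 0.833 and 0.113 to 0.827). The related ACHT4, Cs5g26220, stood at 62.6 and 64.2 FPKM in control and 36.1 and 35.1 FPKM in +Al *C. sinensis* roots, and at 54.6 and 54.9 FPKM in control and 71 and 109.7 FPKM in +Al *C. grandis* roots. Its +Al libraries were lower than the controls in *C. sinensis* and higher in *C. grandis*, with a difference of 1.52 (SE 0.27, adjusted p = 0.0085), the highest of any member called so, lost when any 1 *C. sinensis* library was left out (adjusted p 0.00028 to 0.0606).

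Thioredoxins with tetratricopeptide repeats also had differences of opposite sign. Orange1.1t00126 stood at 16.8 and 17.2 FPKM in control and 10.3 and 12 FPKM in +Al *C. sinensis* roots, and at 10.2 and 8.88 FPKM in control and 11.8 and 16.6 FPKM in +Al *C. grandis* roots, with a difference of 1.16 (SE 0.29, adjusted p = 0.029). Cs2g15600, described as a repeat-containing thioredoxin and another of the 4 called members of lowest level, had -1.33 (SE 0.34, adjusted p = 0.034). Both were lost when any 1 *C. sinensis* or control *C. grandis* library was left out (adjusted p 0.00526 to 0.131 and 0.024 to 0.139). The thioredoxin-like splicing factors Cs7g13820 and Cs5g34770 were called nowhere.

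**Figure D5:**
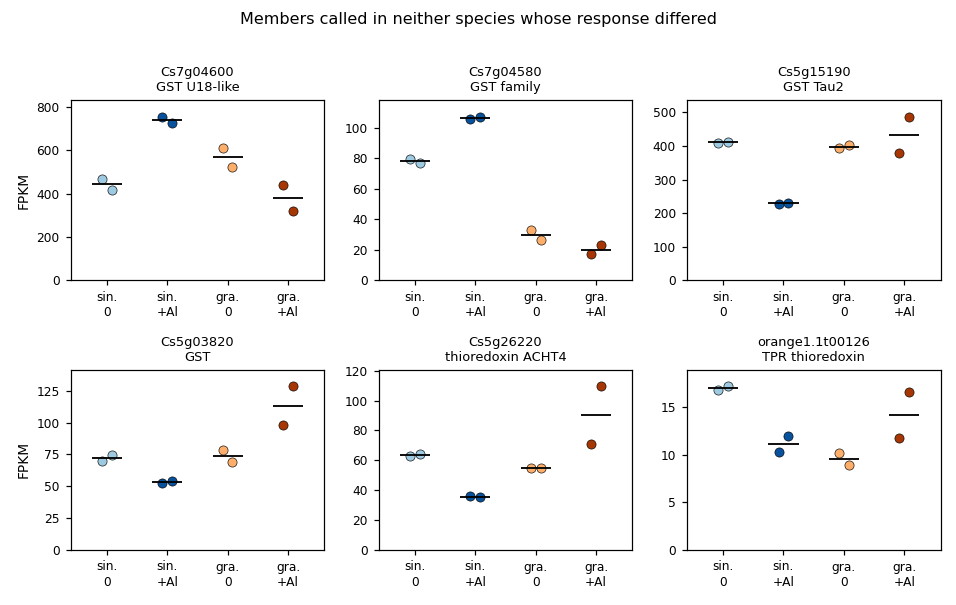
FPKM in each library (points) with the group mean (line) for 6 of the 10 members called in neither species whose response to Al differed between *C. sinensis* (sin.) and *C. grandis* (gra.). Cs7g04600 and Cs7g04580 are higher with Al in *C. sinensis* and lower in *C. grandis*, the other 4 are lower in *C. sinensis*, and the y axes start at 0 and differ between panels.

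Across the members, the response was higher in *C. grandis* for 7 of 98 tested and lower for 12 (6.27% and 11.3% of all 20158 genes tested). With each library rescaled by its median ratio to the others, these counts were 20 and 11. In the list were all 6 members that fell in *C. grandis* and were tested without a call in *C. sinensis*, but only 1 of the 5 called as risen in *C. grandis* and tested without a call in *C. sinensis* (Cs8g19390) and none of the 4 called as risen in *C. sinensis* alone. Another 10 were called in neither species, and 2 (Cs7g14120 and orange1.1t04916) in both. With any 1 *C. sinensis* library left out, 0 or 1 members were higher and 2 or 3 lower. The 0, without control 2 or +Al 1 in limma, stood beside 10 and 18 members higher at an unadjusted p under 0.05. Without *C. grandis* control 1, control 2, +Al 1 and +Al 2 the counts were 4 and 6, 3 and 8, 20 and 14, and 12 and 14 (higher and lower).

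The other 64 members tested were called nowhere. They were 27 GSTs, 11 glutaredoxins, 23 thioredoxins, 2 thioredoxin reductases and the synthetase. Their log2 fold changes ran from -2.46 to 1.78 (median -0.05) in *C. sinensis*. The range in *C. grandis* was -1.02 to 3.12 (median 0.15). The 11 members tested nowhere reached at most 1.63 FPKM in any library.

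Some calls rested on a setting other than the libraries used. Rescaling ended those of Cs6g20580 (difference) and orange1.1t04724 (*C. grandis*) besides Cs5g32780 and Cs7g14300. With no filter on low values, the calls in *C. grandis* of Cs2g13810, Cs4g13930, Cs5g32780, Cs8g06060, orange1.1t00238, orange1.1t02220 and orange1.1t03626 were lost, with the differences of Cs2g13810 and Cs7g04520. A pseudocount of 1 ended those of Cs4g13930 and orange1.1t00238 in *C. grandis*, of orange1.1t03618 in *C. sinensis* and the difference of Cs2g13810. A spread shared by all 8 libraries ended those of orange1.1t03618 (*C. sinensis*) and orange1.1t03626 (*C. grandis*), and a filter at 5 FPKM that of Cs2g13810 (*C. grandis*). The replicate number as a block ended 16 of 50 calls: the differences of Cs2g13810, Cs2g15600, Cs3g01790, Cs5g03820, Cs6g20580, Cs7g04580, Cs7g14120 and orange1.1t00126, and in *C. grandis* Cs2g13810, Cs4g13930, Cs5g32780, Cs8g06060, orange1.1t00238, orange1.1t02220, orange1.1t03626 and orange1.1t04724. A log2 size of 1 ended the differences of Cs3g01790, Cs5g15190, Cs6g20580 and Cs7g04520.

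Counts within a species also moved when a library was left out. Such a fit has less power, so a lost call need not have rested on the library left out. In *C. sinensis* 4 to 7 members rose and 3 to 6 fell in the fits without a library, with 3 fallen without control 1 or control 2. In *C. grandis* 3 to 6 rose and 7 to 10 fell, with 3 risen without +Al 2, 4 risen and 7 fallen without control 2, and 8 fallen without control 1.

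The enzymes that work with these proteins were taken as 10 lists. Of 62 genes in them (peroxidases, reductases, peroxiredoxins, glyoxalases, disulfide isomerases, conjugate pumps and others), *C. sinensis* had 1 riser and 3 fallers among 47 tested, and *C. grandis* 1 and 2 among 52, beside 8.53% and 12.5% of all genes called in either direction. No glutathione or ascorbate peroxidase, glutathione reductase, glyoxalase or conjugate pump was called within either species by limma (0 of 29 tested in *C. sinensis* and 0 of 31 in *C. grandis*, with 20 and 8 at an unadjusted p under 0.05). Methionine sulfoxide reductases, which repair oxidised methionine with electrons from thioredoxin, held 3 calls among 7 genes. Cs8g03105, a plastid B3 type, was at 53.5 and 53.7 FPKM in control and 22.7 and 30 FPKM in +Al *C. sinensis* roots, a log2 fold change of -1.04 (SE 0.13, adjusted p = 0.0034). Cs5g35220, of the same description, fell by 1.25 (SE 0.22, adjusted p = 0.0089). Cs9g05400, an msrB, was at 130.5 and 132 FPKM in control and 259 and 309.8 FPKM in +Al *C. grandis* roots, a log2 fold change of 1.11 (SE 0.21, adjusted p = 0.00012).

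Protein disulfide isomerases, which form disulfide bonds in secreted proteins, included a fall in both species. Orange1.1t05332 was at 4.64 and 5.68 FPKM in control and 1.12 and 1.69 FPKM in +Al *C. sinensis* roots, and at 14.5 and 15.7 and 2.97 and 2.21 FPKM in *C. grandis*. The log2 fold change was -1.82 (SE 0.26, adjusted p = 0.0049) and -2.51 (SE 0.35, adjusted p = 5.2e-07), and the similar orange1.1t05304 fell by 2.03 (SE 0.46, adjusted p = 0.0012) in *C. grandis*. The 1 partner gene that rose in *C. sinensis* was the peroxiredoxin-2B-like Cs8g10680, at 0.165 and 0.171 FPKM in control and 2.73 and 2.16 FPKM in +Al roots. In the test of the difference, 7 of 52 partner genes were higher and 2 lower in *C. grandis*, beside 6.27% and 11.3% of all genes. The 7 held 4 of the 11 glyoxalases tested, which remove methylglyoxal with glutathione, by between 0.61 and 1.12 on the log2 scale. They also held the glutathione peroxidase Cs5g03830, at 0.77 (SE 0.18, adjusted p = 0.026), and the methionine sulfoxide reductases Cs8g03105 and Cs9g05400. The conjugate pump Cs1g18460, at -1.21 (SE 0.27, adjusted p = 0.02), and the peroxiredoxin Cs8g10680, at -3.57, were lower. In *C. grandis* Cs8g10680 stood at 87.3 and 85.8 FPKM in control and 61.9 and 76.8 FPKM in +Al roots. Its log2 fold change there was only -0.33 (adjusted p = 0.43), so its difference rests mostly on the rise from very low values in *C. sinensis*. Calls of these partner genes were not refitted without a library.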

How the data were processed

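Root tip RNA of 2 citrus species (2 treatments, 2 libraries a group) was sequenced by the authors, who removed ribosomal reads with Bowtie, mapped the rest to the *C. sinensis* genome with TopHat2, assembled transcripts with Cufflinks and deposited FPKM per gene. The genome's version is not given in the sources used. The authors' notes also name edgeR 3.0.0 and R 2.1.5. Counts were not used here, so limma (3.58.1, R 4.3.3, trend) was fitted to log2(FPKM + 0.1), for each species alone and, for the difference, over all 8 libraries. The fit of the difference assumes that a gene varies alike in both species, so its SE can be smaller than that of *C. grandis* alone. Genes averaging 1 FPKM or more in some group of a comparison entered. A fold change on this scale understates that of low genes. Benjamini-Hochberg adjustment ran over all genes. Calls needed an adjusted p of at most 0.05 and a log2 change of 1 (the difference: adjusted p alone). The fit was also run on simulated data, but the outcome is not given here, so that run is no support for the calls. Each of the 4 deposited tables holds 1 group, so every comparison is between tables, whose FPKM were scaled per library. Tables were prepared with Python 3.11.15 (pandas 2.3.3).

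Members called in any test, the 10 with the highest mean, Cs2g16150, Cs1g26810, the synthetase and members at 0 throughout 1 group and at 1 FPKM or more throughout another are named. Of 34 called members, values in every library are given for the 30 of highest level. Members and lists were chosen with earlier results of these data known, and the partner and marker lists by words of the descriptions. Alternatives changed the pseudocount, filter, scaling, spread, call rule, genes and libraries used.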

Additional observations from a re-analysis of the deposited data

Results flagged for a closer look

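For 19 of 98 members tested, beside 17.6% of all genes, the response to Al differed between the species by the test of the difference itself, given here as the log2 fold change in *C. grandis* minus that in *C. sinensis*. The response was lower in *C. grandis* for 12. Among GSTs these were Cs7g14120 at -1.96, Cs5g32780 at -1.89, orange1.1t04916 at -1.84, Cs7g04600 at -1.34 and Cs7g04580 at -1.03. Among glutaredoxins they were Cs2g13810 at -1.51 and Cs2g16150 at -1.17. The thioredoxin reductase Cs1g26810 was at -2.24. Among thioredoxins, Cs8g06060 was at -1.56, Cs2g05460 at -1.51, Cs2g15600 at -1.33 and Cs6g20580 at -0.71. The response was higher in *C. grandis* for 7, namely the thioredoxins Cs5g26220 at 1.52, orange1.1t00126 at 1.16 and Cs7g04520 at 0.94, the GSTs Cs8g19390 at 1.18, Cs5g03820 at 1.05 and Cs5g15190 at 0.95, and the glutaredoxin Cs3g01790 at 0.78. Only Cs1g26810 and Cs2g05460 were called under each of the 15 alternatives.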

How the results depend on the processing

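Of 50 called results for single members, 16 kept their call under every alternative, 34 lost it under at least 1 and none reversed. By the adjusted p alone, *C. sinensis* had 24 members risen and 25 fallen, and *C. grandis* had 14 risen. With no filter on low values, 3 rose in *C. grandis*. With the difference called at an adjusted p and a log2 size of 1, 4 members were higher, and with rescaling 20 were. Leaving out 1 library at a time gave 4 to 7 risen and 3 to 6 fallen in *C. sinensis*, then 3 to 6 risen and 7 to 10 fallen in *C. grandis*, and 0 to 20 higher and 2 to 14 lower in the difference; a lone library is then assumed to vary like the other groups. Same-numbered libraries did not deviate together (correlations of -0.0075 for *C. sinensis* and 0.035 for *C. grandis*), so the numbers do not pair them. With the replicate number as a block, 3 members rose in *C. grandis*, and 4 were higher and 7 lower in the difference. Counts elsewhere moved by less than 1.5 times, and the causes were not tested. Depth limits the members under 1 FPKM, and a count test was not run because the values are FPKM.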

Other observations

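The members named here were picked after their values were seen, the first 3 for values that were uneven between libraries of a group. Orange1.1t05730, a GST family member, was listed at 0 in 7 libraries and at 7.44 FPKM in +Al *C. grandis* replicate 2. Orange1.1t01914, a thioredoxin superfamily protein, was at 0 and 5.65 FPKM in control and 2.84 and 0 FPKM in +Al *C. sinensis* roots, and at 7.06 and 5.95 FPKM in control and 5.76 and 8.2 FPKM in +Al *C. grandis* roots. Cs3g01160, a GST, was at 0.597 and 3.28 FPKM in control and 0.678 and 0 FPKM in +Al *C. sinensis* roots and at 0 in all *C. grandis* libraries. The last, Cs7g15760, was a glutathione transferase with even values within each group but +Al *C. grandis*. It stood at 19.3 and 19.2 FPKM in control and 12.6 and 12.9 FPKM in +Al *C. sinensis* roots, and at 157 and 153 FPKM in control and 129.6 and 196 FPKM in +Al *C. grandis* roots. This gap between species cannot be told apart from unequal mapping to the *C. sinensis* genome. Its log2 fold change in *C. sinensis* was -0.59 (SE 0.08, adjusted p = 0.0036).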
